A study of Mus musculus with 19 samples.

Results

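The genes described here encode core proteins of the spliceosome and their closest relatives. They are the protein-coding genes whose symbols begin with Snrp, Sf3a, Sf3b, Lsm or Prpf followed by a letter or digit, leaving out the imprinted gene Snrpn. The rule uses symbols only and picked 47 of the 53379 genes in the deposited count table. Of these, 46 were expressed strongly enough to be tested, at 1 FPKM (counts scaled to exon length and to the gene counts of the library) or more in at least 2 embryos, as were 18410 genes in all. The other member, Lsmem1, matches by symbol only and held between 0 and 3 counts in each embryo.

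PolyA RNA had been sequenced from 19 single mouse embryos of the B6D2F1 strain, made by in vitro fertilisation, grown in KSOM medium (37 C, 5% CO2) and taken 96 hours past insemination. In the Alyref cross both parents carried 1 deleted copy of Alyref, and in the Gabpb1 cross both carried 1 deleted copy of Gabpb1. The submitters called an embryo KO when the same library lacked reads over the deleted region, so the remaining embryos of each cross (non-KO) can be WT or heterozygous. The comparisons ask how the loss of Alyref, an adaptor that hands spliced mRNA to the nuclear export machinery, or of Gabpb1, which encodes the beta subunit of GABP, an ETS-family transcription factor, changes the transcriptome of the embryo. The Alyref cross gave 2 KO morulae, 3 morulae that were non-KO and 3 blastocysts that were non-KO. From the Gabpb1 cross came 3 morulae labelled KO, 2 morulae that were non-KO and 3 blastocysts that were non-KO, and 3 blastocysts came from WT B6D2F1 parents. All groups had the same age in hours, so a morula was an embryo that had not formed a blastocyst by then. Nothing states that the embryos of a group came from separate litters or fertilisations, so p-values measure the spread between these embryos. That spread was estimated jointly from all 19 embryos, including groups outside a given comparison.

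The spliceosome removes introns from pre-mRNA. Its small nuclear ribonucleoproteins (snRNPs) U1, U2, U4 and U5 carry a ring of Sm proteins, and U6 carries a ring of LSm proteins; SF3a and SF3b complete U2 and grip the branch point, and the Prpf proteins hold the U4/U6.U5 tri-snRNP together and help to drive the catalytic steps. Preimplantation embryos start transcribing and splicing their own genome within the first cell cycles, and loss of several core splicing factors is known to stop mouse embryos before or around implantation.

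Depth was between 7486125 and 31536282 gene counts per embryo, ERCC spike-in RNA took between 0.501% and 1.95% of counts, and mitochondrial transcripts between 2.51% and 5.74%. Alyref itself was at 47.8 and 58.5 CPM (counts scaled to library size with TMM factors, which level the libraries on the bulk of genes) in the KO morulae and at 210.3, 291.3 and 161.5 CPM in the non-KO morulae of its cross. Its fitted log2 fold change was -2.05 (SE 0.30, adjusted p = 0.0227 by edgeR's quasi-likelihood test with Benjamini-Hochberg adjustment, the test behind every adjusted p given). The KO label had been read from these same libraries, so this fall follows in part from the labelling and is no independent check of it. Gabpb1 was at 78.2, 259.4 and 150.5 CPM in the morulae labelled KO and at 93.8 and 83.3 CPM in the non-KO morulae of its cross. Counts over the whole gene therefore did not show a loss in the libraries labelled Gabpb1 KO (log2 fold change 0.88, SE 0.39, adjusted p = 0.243), and every direction drawn from them below is that of the label. The sum of 14 trophectoderm markers was 519 to 3820 CPM in those 3 morulae, 3830 to 5750 CPM in the 2 non-KO morulae of the same cross, 1310 to 2790 CPM in the 5 morulae of the Alyref cross and 6030 to 9140 CPM in the 9 blastocysts. None of the 14 was at 0 in a whole group, whereas 10 cumulus and granulosa cell markers summed to at most 3.12 CPM in any embryo. On the first principal component, replicate 3 of the Alyref-cross non-KO morulae at -3.24 and replicate 1 of the labelled Gabpb1 KO morulae at -8.08 lay near the non-KO morulae of the Gabpb1 cross, at 4.97 and 19.5, and apart from the other 6 morulae, at -110.2 to -56.1. Counts of called members, and the values of named genes that moved by over 1.5 times, are given without them below.

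GABP binds the ETS motif, and the letters CCGGAAG were therefore looked up on both strands of RefSeq promoters (build GRCm38.p6, from 250 bases before to 50 after each start). Promoters were matched by symbol for 38 of the 47 genes, and 15 of these (39.5%) held the motif, against 1878 of 8809 tested protein-coding genes with a promoter (21.3%). Counted by promoter, 16 of the members' 45 promoters (35.6%) held it, against 8.86% of all promoters in that table, which include those of untested genes. A match is only a description of these letters. The first sequence shown is the stretch before the start of Lsm10, the gene with the largest difference between morulae labelled Gabpb1 KO and non-KO, which holds no such match in its promoter window. The other 6 show the motif, in capitals, in genes of the U1, U2, SF3a, SF3b, tri-snRNP and other Prpf groups. Each is given 5′ to 3′ in the direction of its gene. They lie at chr4:126096523-126096622 (plus strand, Lsm10), chr17:27840037-27840066 (plus, Snrpc), chr2:143063038-143063067 (plus, Snrpb2), chr10:80798648-80798677 (plus, Sf3a2), chr12:4817516-4817545 (plus, Sf3b6), chr3:95855792-95855821 (minus, Prpf3) and chr19:10895152-10895181 (plus, Prpf19).
Lsm10: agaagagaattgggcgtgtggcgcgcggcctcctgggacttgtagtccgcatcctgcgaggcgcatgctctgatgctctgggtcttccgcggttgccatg
Snrpc: tagggcagaggCCGGAAGcggaagtcctac
Snrpb2: cctCTTCCGGcgcggggaagctCTTCCGGt
Sf3a2: cgcctttgctcCCGGAAGggatcgcttcgt
Sf3b6: cccgcccCTTCCGGtccgcaatCCGGAAGc
Prpf3: ccgtagggcaaCCGGAAGgtttccggttcc
Prpf19: tggagcgctcgCCGGAAGaagccgagccaa
In Snrpb2 and Sf3b6 the motif occurs 2 times within the 30 bases shown. Both copies in Snrpb2 lie on the other strand and so read CTTCCGG, while Sf3b6 has 1 copy on each strand.

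Most of these genes were abundant in every embryo. The median of their mean FPKM over the 19 embryos was 34.3, against 4.02 for all genes tested, and 42 of the 46 lay above the median and 12 in the top 10% of tested genes. The highest were Snrpe with a mean of 357.6 FPKM (range 293 to 430.7), Snrpb with 328.4 FPKM (237.7 to 489.3) and Snrpd1 with 318.6 FPKM (242.8 to 408.8), all 3 of the Sm ring. At the other end were Prpf19, a ubiquitin ligase of the activated spliceosome, with 1.54 FPKM (0.792 to 2.42), Lsm14b with 0.974 FPKM (0.460 to 1.71) and Prpf40b with 0.787 FPKM (0 to 1.56). In all, 7 members exceeded 100 FPKM, 29 lay from 10 to 100 FPKM, 6 from 2 to 10 FPKM and 4 below 2 FPKM.

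Proteins that share a complex did not have equal transcript levels. Within the Sm ring, whose 7 proteins are each present once, mean FPKM ran from 41.9 for Snrpd3 to 357.6 for Snrpe, a ratio of 8.52. In the LSm2 to LSm8 ring of U6 it ran from 27.0 for Lsm6 to 196.7 for Lsm4, a ratio of 7.3, and in SF3b from 8.46 for Sf3b3 to 104.8 for Sf3b6, a ratio of 12.4. The 5 tri-snRNP Prpf genes were the most even of the larger groups, from 6.91 FPKM for Prpf3 to 16.8 for Prpf31, a ratio of 2.43. These ratios carry the uncertainty of the deposited exon lengths and of copies: 13 members had a stretch of 100 or more bases with at least 95% identity to an annotated pseudogene (Lsm5, Lsm6, Lsm7, Lsm12, Prpf19, Sf3b4, Snrpa, Snrpc, Snrpd1, Snrpd2, Snrpe, Snrpf and Snrpg), and reads from such copies cannot be told apart. For Snrpf, 85.4% of exon bases also lay under genes of the opposite strand, and the strand setting of the counting is not given.

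**Figure D1:**
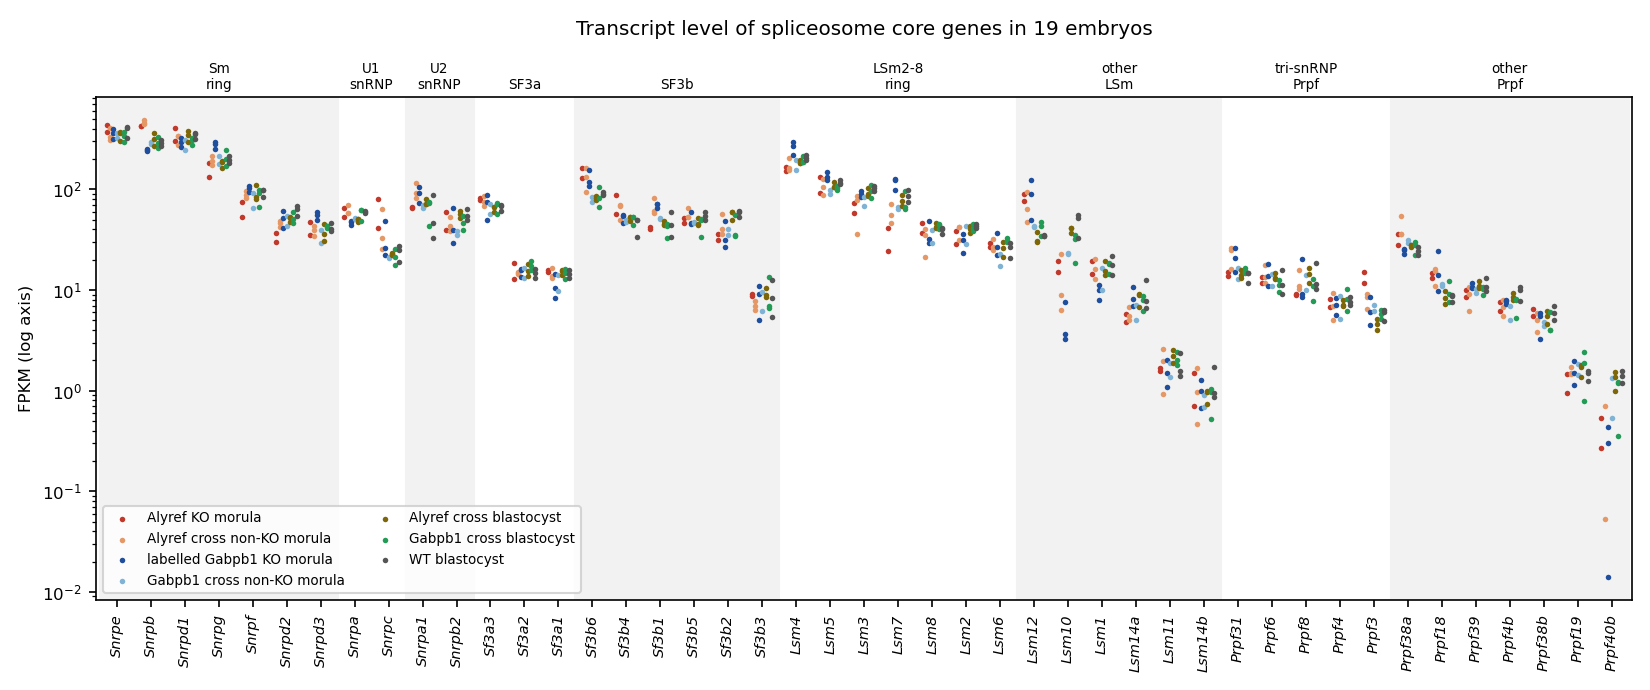
FPKM of the tested members reported here (log axis) in each of the 19 embryos, 1 point per embryo coloured by group and ordered by role. Points of a gene lie close together for most members. Snrpe, Snrpb and Snrpd1 of the Sm ring have the highest means, and Lsm14b and Prpf40b the lowest. A log axis cannot show 1 embryo with 0 counts of Prpf40b or the untested Lsmem1.

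The members also varied little. Their median within-group SD on the log2 scale was 0.258, against 0.371 for all genes tested, and the ratio of the highest to the lowest group mean had a median of 1.60 against 2.66. Only 6 members exceeded a ratio of 2, whereas 69.1% of tested genes did. These 6 were Lsm10 (9.56), Prpf40b (5.57), Lsm7 (3.54), Prpf3 (2.99), Snrpc (2.95) and Lsm12 (2.81). The genes compared were not matched for level, with a median mean FPKM of 34.3 for the members and 4.02 for all genes tested. The part of level in the smaller variation was not tested. All members together took 0.586% to 0.763% of an embryo's gene counts. The share was 0.744%, 0.763% and 0.735% in the non-KO morulae of the Alyref cross and 0.693% and 0.731% in its KO morulae. It was 0.747%, 0.748% and 0.694% in the morulae labelled Gabpb1 KO and 0.649% and 0.588% in their non-KO counterparts. The 9 blastocysts lay between 0.586% and 0.724%. The non-KO morulae of the Gabpb1 cross thus lay below all other morulae and within the blastocysts. In whole embryos, fewer cells of a type and less RNA per cell cannot be told apart.

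**Figure D2:**
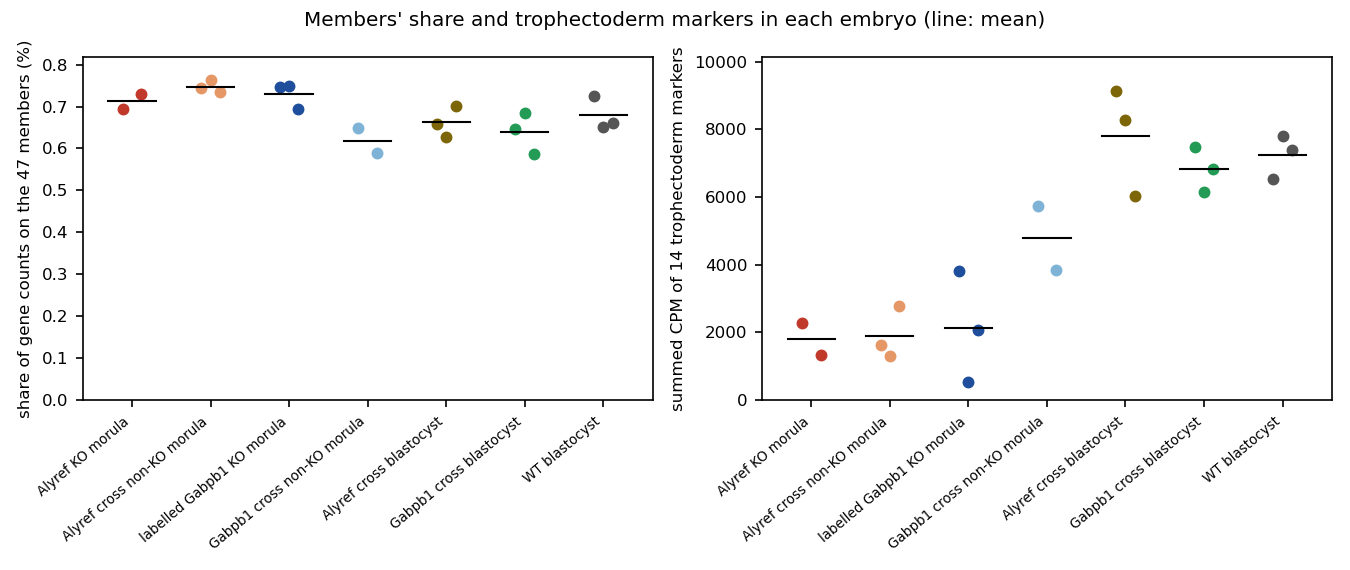
Left, percent of gene counts on the 47 members in each embryo; right, summed CPM of the 14 trophectoderm markers; points are embryos and lines are group means. The 2 non-KO morulae of the Gabpb1 cross are below the other 8 morulae on the left and above them on the right.

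In Alyref KO morulae no member passed the test against the non-KO morulae of the cross. By edgeR's quasi-likelihood test at an adjusted p under 0.05, 0 of 46 were called, where 0.228% of all tested genes (42 of 18410, 0.0923% higher and 0.136% lower) were; 6 members had an unadjusted p under 0.05 (all genes: 12.1%), and DESeq2 called 2 members (4.35%, where it called 2.66% of all genes), Lsm7 and Sf3b1, both lower. The members' median log2 fold change was -0.03, beside -0.04 for all genes, with 20 members above 0 (43.5%, all genes 46.5%) and 26 below 0 (all genes 52.5%). Without KO replicate 2 the medians were -0.22 and -0.11. Without non-KO morula replicate 3, 0 members were called, where 0.695% of all genes were. The KO embryos lay wholly below the non-KO embryos for 11 of 46 members and wholly above for 2, where 12.3% and 12.5% of all tested genes did. The 14 trophectoderm markers summed to 1310 to 2270 CPM in the KO morulae and 1310 to 2790 CPM in the non-KO morulae, with 0 of 14 called. The 14 epiblast and pluripotency markers summed to 5070 to 5470 CPM against 6940 to 7670 CPM (12 of 14 below 0, 1 called lower, median -0.62), and the 12 maternal oocyte mRNAs to 27.2 to 34.3 CPM against 70.1 to 79.1 CPM (3 tested, 0 called). The oocyte mRNAs summed to 42.1 to 143 CPM in labelled Gabpb1 KO morulae and 56.7 to 70.6 CPM in their non-KO counterparts. In Alyref-cross blastocysts their sum was 89.2 to 149 CPM. The part of these markers in the members' values was not tested.

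Lsm7, a subunit of the U6 ring encoded at chr10:80852821-80855209 (GRCm38, minus strand), had the lowest fitted value. It was at 38.3 and 66.8 CPM in the KO morulae and at 92.6, 85.4 and 110.9 CPM in the non-KO morulae, so the groups did not overlap (log2 fold change -0.87, SE 0.25, adjusted p = 0.165). The value was -0.53 without KO replicate 1 and -1.35 without KO replicate 2. Sf3b1, at chr1:54985169-55027481 (GRCm38, minus strand), the SF3b subunit that clamps the branch point, was at 448.4 and 483.3 CPM against 720.7, 1060 and 638 CPM. Its groups did not overlap either, and its log2 fold change of -0.79 (SE 0.23) also missed the threshold (adjusted p = 0.166). Prpf31, which binds the U4 snRNA, was at 81.7 and 75.4 CPM against 139.5, 162.5 and 85.3 CPM (-0.72, SE 0.27, adjusted p = 0.286). A gene of the opposite strand covers 18.1% of the exon bases of Prpf31.

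On the other side, Prpf3, a U4/U6 protein, was at 83.4 and 68.03 CPM in the KO morulae and at 50.0, 58.8 and 35.6 CPM in the non-KO morulae (log2 fold change 0.65, SE 0.27, adjusted p = 0.324). Snrpc, a U1 protein that meets the 5′ splice site, was at 489.5 and 262 CPM against 210.8, 457 and 155.6 CPM. The ranges of Snrpc overlapped (log2 fold change 0.45, SE 0.42, adjusted p = 0.73), and without replicate 1 of the KO morulae the value turned to -0.064. Prpf40b, a U1-associated protein of low level, had 10 and 40 counts in the KO morulae and 5, 0 and 52 counts in the non-KO morulae, which fixes no direction (log2 fold change 0.72, SE 1.14, adjusted p = 0.862; 0.079 without KO replicate 2 and 3.65 without non-KO morula replicate 3).

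By role, the 7 Sm genes had a median log2 fold change of -0.21 in Alyref KO morulae, with 4 of 7 below 0 and Snrpf (-0.55) and Snrpd2 (-0.51) at an unadjusted p under 0.05. The SF3a genes stayed between -0.02 and 0.03. For SF3b the median was -0.11, for the LSm2 to LSm8 ring -0.07, for the tri-snRNP Prpf genes -0.27 and for the other Prpf genes 0.00015. None of these role groups held a called member.

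Among morulae labelled Gabpb1 KO, Lsm10 was the one member that passed the test, and it was lower. Lsm10 is not part of the spliceosome proper: with Lsm11 it takes the places of SmD1 and SmD2 in the U7 snRNP, which trims the 3′ ends of histone pre-mRNAs. The gene lies at chr4:126096623-126098584 on the plus strand (GRCm38). It had 80, 35 and 50 counts in the labelled KO morulae, that is 6.89, 3.24 and 3.55 CPM, against 21.4 and 21.3 CPM in the non-KO morulae. Its log2 fold change was -2.23 (SE 0.46, adjusted p = 0.0276). Lower calls were made for 1.3% of all genes tested, higher calls for 0.348% and calls of either direction for 1.65% (303 of 18410), so 1 of 46 (2.17%) is a single gene near the background.

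Lsm10 was also variable in the other groups. It was at 14.1 and 18.4 CPM in Alyref KO morulae and at 6.19, 9.62 and 21.04 CPM in the non-KO morulae of the Alyref cross. Blastocysts were at 39.6, 38.7 and 32.2 CPM in the Alyref cross, 32.1, 17.9 and 29.7 CPM in the Gabpb1 cross and 28.95, 48.5 and 53.2 CPM in WT. The 3 labelled Gabpb1 KO morulae were the lowest of all 19 embryos except that 1 Alyref-cross non-KO morula, at 6.19 CPM, lay within their range. The call was lost in 4 of the 5 fits that left out 1 embryo of the comparison, with either non-KO morula (-2.22 without replicate 1 and -2.23 without replicate 2) or with KO replicate 2 (-2.05) or 3 (-2.09), and held at -2.65 without KO replicate 1. It was lost as well with ERCC scaling (-2.46), where 0.141% of all genes were called. It was also lost when only the compared groups entered the fit (-2.24), where 0 of the 18410 genes were called. The direction was the same in all of these. Trophectoderm markers moved with it, at 519 to 3820 CPM summed in the labelled KO morulae and 3830 to 5750 CPM in the non-KO morulae (13 of 14 below 0, 0 called, median log2 fold change -1.06). Epiblast and pluripotency markers summed to 6440 to 8640 CPM against 4910 to 6530 CPM (11 of 14 above 0, 0 called, median 0.45). The part of both lists in these results was not tested. Lsm11, the partner of Lsm10, was at 12.6, 7.41 and 9.93 CPM against 8.61 and 11.9 CPM, with a log2 fold change of -0.04.

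The remaining members leaned the other way without passing. Of the 46, 33 had a fitted value above 0 in labelled Gabpb1 KO morulae (71.7%, against 52.9% of all genes tested), and the median was 0.16 beside 0.06. Both medians turn negative with ERCC scaling, to -0.22 for the members and -0.40 for all genes, with the members still the higher. Without labelled KO replicate 1, 31 members were above 0 (67.4%, all genes 49.5%) with a median of 0.15, and without non-KO morula replicate 1 the median was 0.32. Called members without labelled KO replicate 1 were 2, Lsm10 and Lsm12 (4.35%, where 5.25% of all genes were called). An unadjusted p under 0.05 was found for 10 members, 9 of them above 0 (21.7% of members and 18.9% of all genes), and DESeq2 called 6 (13%, where it called 6.87% of all genes): Lsm10 lower and Lsm4, Lsm5, Lsm7, Lsm12 and Snrpd3 higher. The labelled KO embryos lay wholly above the non-KO embryos for 16 of 46 members and wholly below for 4, where 15.8% and 16.4% of all genes did.

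The ring of U6 held 4 of those 10 genes. Lsm4, Lsm5, Lsm6, Snrpd3 and Snrpg are described here after their values had been seen. Lsm7 was at 193.5, 205.2 and 159.2 CPM in the labelled KO morulae and at 102.4 and 101.2 CPM in the non-KO morulae (log2 fold change 0.87, SE 0.25, adjusted p = 0.0858). Lsm4 was at 271.2, 322.5 and 230.7 CPM against 196.1 and 157.4 CPM (0.64, SE 0.18, adjusted p = 0.0803). Lsm5, at 114.7, 109.2 and 100.4 CPM against 68.4 and 75.8 CPM, had a log2 fold change of 0.58. For all 3 the labelled KO embryos lay above the non-KO embryos, while Lsm6 overlapped at 87.8, 155.3 and 109.8 CPM against 90.1 and 68.6 CPM (0.57, which turned to -0.085 with ERCC scaling). Without labelled KO replicate 1 the values were 0.65 for Lsm4, 0.54 for Lsm5 and 0.74 for Lsm6, none of them called. Gm7846, a near-identical pseudogene of Lsm5, was at 35.8 to 37.0 CPM in labelled KO morulae and 21.1 to 27.2 CPM in non-KO morulae, and may share its reads. The summed CPM of the 7 ring genes was 1145 to 1256 in labelled KO morulae and 836.6 to 930.8 in non-KO morulae, beside 1000 to 1213 in the 9 blastocysts, which reached into the labelled KO range. Within the ring, Lsm2 went the other way, at a mean of 95.9 against 110.4 CPM. The sums of SF3b (1586 to 1775 against 1265 to 1277 CPM), of the U2 proteins (352.6 to 461 against 303.3 to 322.1 CPM) and of the Sm ring (2070 to 2098 against 1780 to 1916 CPM) were also higher in all 3 labelled KO morulae than in both non-KO morulae. So was that of the other LSm genes (234.1 to 409.4 against 197.4 to 219.5 CPM). The sums of U1, SF3a, the tri-snRNP Prpf genes and the other Prpf genes overlapped. How often sums of other gene sets part in this way was not tested.

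Of the Sm ring, Snrpd3 was at 182.1, 177.1 and 207.3 CPM in labelled Gabpb1 KO morulae and at 130.1 and 98.7 CPM in non-KO morulae. Its log2 fold change of 0.72 (SE 0.19) came closest to the threshold among the members with positive values (adjusted p = 0.0679), and it was 0.75 without labelled KO replicate 1 (adjusted p = 0.054). Snrpg, at 441.3, 463.2 and 402.9 CPM against 326.4 and 278.1 CPM, had a log2 fold change of 0.53. The groups did not overlap for either gene. Sf3b6, the SF3b subunit that contacts the branch point adenosine, was at 293.3, 468.7 and 340.1 CPM against 208.8 and 234.2 CPM (0.73, SE 0.28, adjusted p = 0.184).

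The largest positive value belonged to Lsm12, an LSm-domain protein that is not known as a spliceosome subunit. It was at 114.5, 312.3 and 216.5 CPM in the labelled KO morulae and at 96.4 and 100.8 CPM in the non-KO morulae (log2 fold change 1.12, SE 0.36, adjusted p = 0.117). Without KO replicate 1 it was called at 1.42, and without KO replicate 2 it was 0.74. Its near-identical pseudogene Gm9727 was at 31.2 to 88.2 CPM against 25.0 to 30.7 CPM, and the copies may share reads. The largest negative values after Lsm10 were those of Prpf40b, with 24, 17 and 1 counts against 36 and 85 counts (-1.88, SE 1.12, adjusted p = 0.385; -1.06 without non-KO morula replicate 2), and Lsm1, the LSm subunit of the cytoplasmic decay ring. Lsm1 was at 33.5, 32.03 and 25.2 CPM against 49.5 and 30.3 CPM, so its ranges overlapped (-0.40, SE 0.26, adjusted p = 0.427). Its value rested on the non-KO morulae, at -0.0025 without replicate 1 and -0.71 without replicate 2. The medians differed little between members with and without the promoter motif. The 15 members with CCGGAAG had a median log2 fold change of 0.20 (11 of 15 above 0), the 22 without it had 0.19 (16 of 22 above 0), and the 9 that matched no promoter had 0.14.

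**Figure D3:**
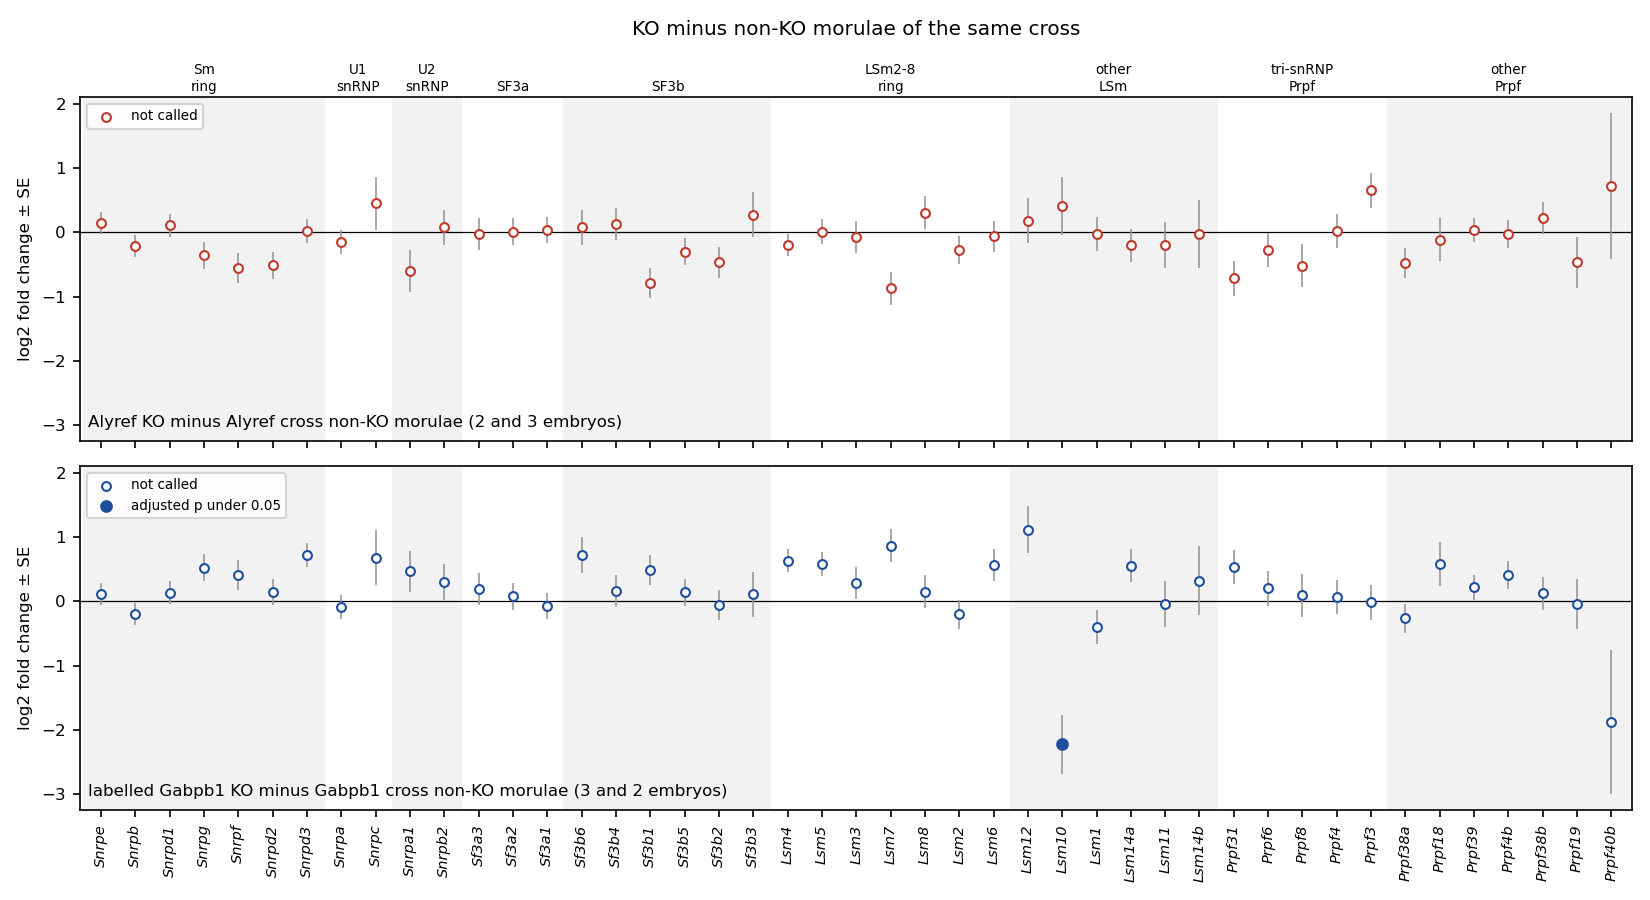
Log2 fold change (point) and its SE (bar) of the tested members reported here between KO and non-KO morulae, Alyref cross above and Gabpb1 cross below, grouped by role. Filled points passed an adjusted p under 0.05; the single filled point is Lsm10 at -2.23, and no point is filled in the upper panel.

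The KO effects of the crosses were compared directly, as the Gabpb1-cross difference minus the Alyref-cross difference, each against its own non-KO morulae. Lsm7 was the single member called (log2 difference 1.74, SE 0.36, adjusted p = 0.0348), where 0.907% of all genes were (167 of 18410, 0.359% higher and 0.549% lower). The 2 Alyref KO morulae were the lowest of all 19 embryos and the 3 labelled Gabpb1 KO morulae the highest, with the non-KO morulae and blastocysts in between at 85.4 to 156.2 CPM. Lsm7 has 2 near-identical annotated pseudogenes, and their counts followed the same order: Gm10146 was at 19.8 to 32.8 CPM in Alyref KO morulae, 44.0 to 56.1 in their non-KO morulae, 81.4 to 107 in labelled Gabpb1 KO morulae and 50.6 to 51.9 in the latter's non-KO counterparts. How reads that match more than 1 copy were counted is not given, so the 3 copies may share reads. DESeq2 called 5 members (10.9%, where it called 4.86% of all genes). Without Alyref-cross non-KO morula replicate 3, 5 were called by edgeR (10.9%, where 3.84% of all genes were): Lsm7, Lsm10, Prpf31, Prpf40b and Sf3b1. Leaving out labelled Gabpb1 KO replicate 1 gave 2 (4.35%, where 2.64% of all genes were called). Fits with ERCC scaling, without a filter, with only the compared groups or with a replicate block called 0.0543%, 0.306%, 0% and 0.636% of all genes. The call of Lsm7 was lost in them, at 1.39, 1.69, 1.72 and 1.77 in that order. It was lost as well without Alyref KO replicate 1 (1.39), Alyref non-KO morula replicate 1 (1.77), labelled Gabpb1 KO replicate 2 (1.66) or Gabpb1-cross non-KO morula replicate 1 (1.75) or 2 (1.73).

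Lsm10 (-2.64, SE 0.64, adjusted p = 0.0611) and Sf3b1 (1.28, SE 0.33, adjusted p = 0.0764) came next in that comparison. Sf3b1 was at 789.4, 851.9 and 758.3 CPM in labelled Gabpb1 KO morulae and 566.7 and 573.2 CPM in their non-KO counterparts, which fitted a log2 value of 0.49 where the Alyref cross gave -0.79. Of the 46 members, 36 had a positive difference (78.3%, against 54.8% of all genes, 45% being below 0), with a median of 0.29 beside 0.12, and 11 had an unadjusted p under 0.05 (23.9%, against 16.8%). With ERCC scaling that median turned to -0.09 beside -0.33. Epiblast and pluripotency markers moved with it (13 of 14 above 0, 1 called higher, median 1.057) and trophectoderm markers against it (10 of 14 below 0, 0 called, median -0.83), and their part was not tested.

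**Figure D4:**
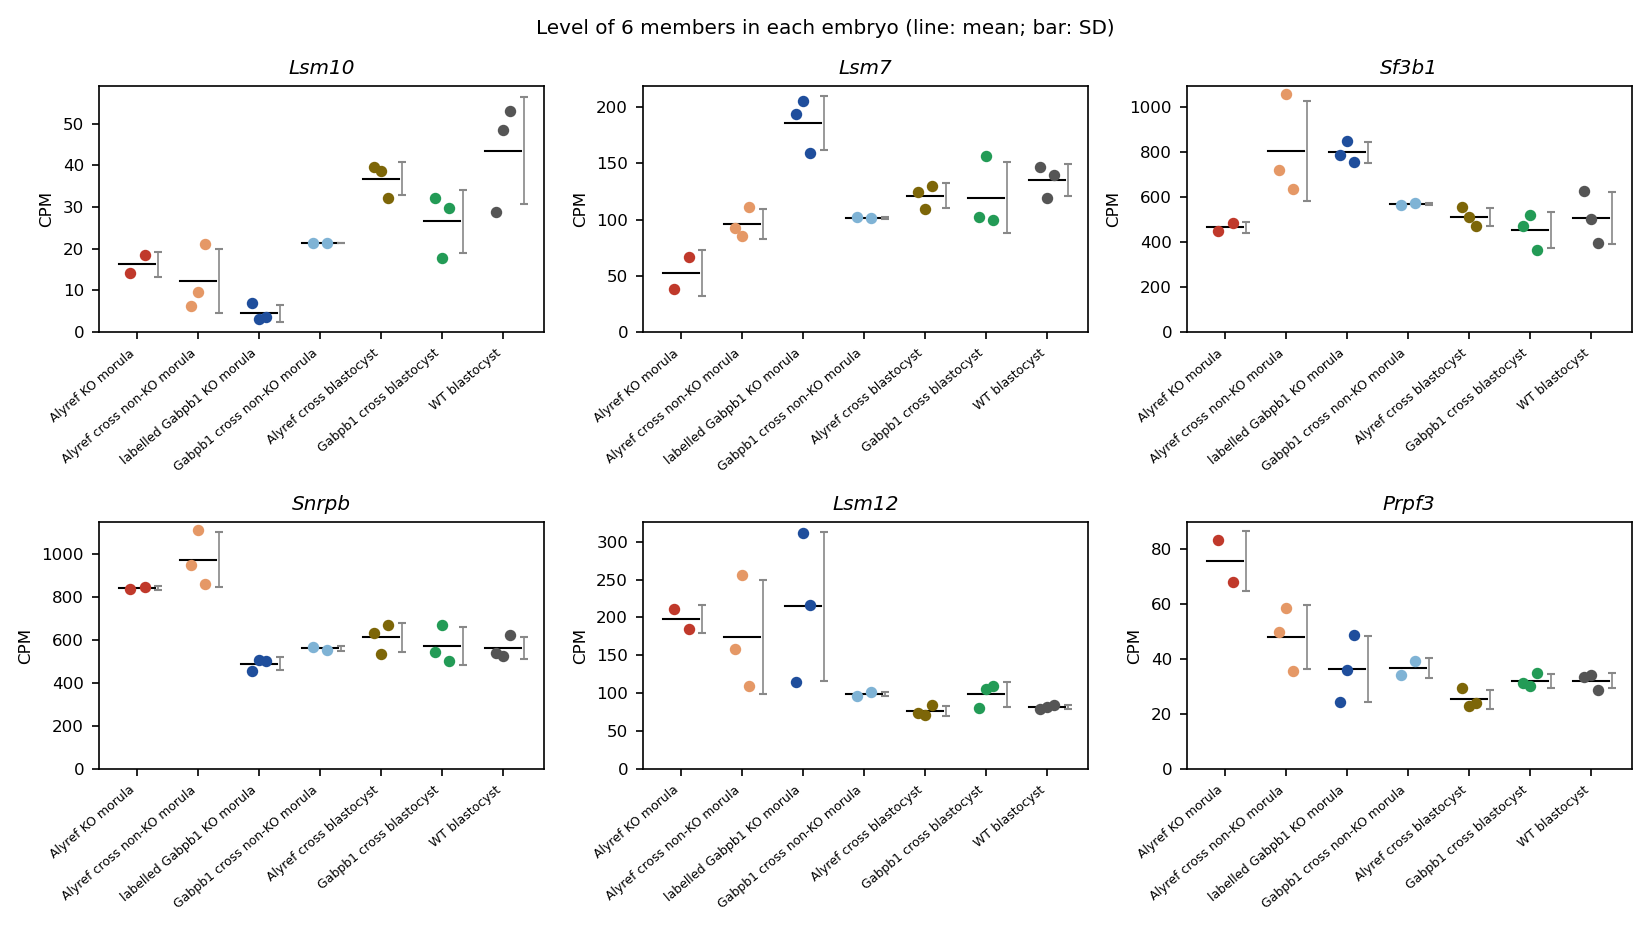
CPM of Lsm10, Lsm7, Sf3b1, Snrpb, Lsm12 and Prpf3 in each embryo by group; lines are means and bars SD. Lsm10 is lowest in labelled Gabpb1 KO morulae, Lsm7 is lowest in Alyref KO and highest in labelled Gabpb1 KO morulae, and Snrpb is highest in the 5 morulae of the Alyref cross.

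Blastocysts differed from non-KO morulae in the Alyref cross for 7 members: 6 fell and Lsm10 rose. Calls numbered 13% of all tested genes (2402 of 18410, 7.43% lower and 5.62% higher), so 7 of 46 members (15.2%) is close to the background. An unadjusted p under 0.05 was found for 12 members (26.1%, all genes 31.1%). The median over the members was -0.06, beside -0.04, and -0.02 without blastocyst replicate 2. DESeq2 called 9 members (19.6%, where it called 20.3% of all genes). Blastocysts lay wholly below the morulae for 12 of 46 members and wholly above for 6, where 19.2% and 19.6% of all genes did. With ERCC scaling, the medians were -0.37 for members and -0.34 for all genes.

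Snrpb, at chr2:130171414-130179403 (GRCm38, minus strand), encodes the SmB and SmB' proteins of the Sm ring. It was at 629.1, 534.1 and 667 CPM in the blastocysts and 946.3, 1112 and 857.5 CPM in the morulae (log2 fold change -0.67, SE 0.15, adjusted p = 0.0145). The Alyref KO morulae were at 834.8 and 846 CPM, so all 5 morulae of the Alyref cross lay above the other 14 embryos, whose range was 452.9 to 667.4 CPM. Sf3b1 fell from 720.7, 1060 and 638 CPM to 554.6, 510.3 and 472.5 CPM (-0.65, SE 0.20, adjusted p = 0.0464). Sf3b6 fell from 391.2, 533.1 and 263.8 CPM to 238.3, 224.5 and 225.7 CPM (-0.79, SE 0.25, adjusted p = 0.0473). For each of these 3 genes every blastocyst was below every morula.

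Lsm12 fell from 158.2, 256.6 and 108.8 CPM to 74.2, 70.8 and 84.1 CPM (-1.19, SE 0.32, adjusted p = 0.0261). Prpf3 fell from 50.0, 58.8 and 35.6 CPM to 29.3, 22.8 and 24 CPM (-0.92, SE 0.24, adjusted p = 0.0261), and Prpf38a, a factor that joins before the catalytic steps, from 199.9, 327.7 and 184.6 CPM to 149, 140.6 and 137.5 CPM (-0.74, SE 0.20, adjusted p = 0.0304). In all of these the highest value was that of morula replicate 2. Gm9727, the near-identical pseudogene of Lsm12, was at 28.7 to 77.9 CPM in the morulae and 22.1 to 24.7 CPM in the blastocysts. Lsm10 rose from 6.19, 9.62 and 21.04 CPM to 39.6, 38.7 and 32.2 CPM (1.59, SE 0.41, adjusted p = 0.0242). Prpf40b had a larger fitted value (2.36, SE 1.04, adjusted p = 0.137) on 5, 0 and 52 counts in morulae and 211, 122 and 48 in blastocysts, and Lsm14a, an mRNA decay and storage factor, was at 35.4, 35.3 and 40.5 CPM against 55.3, 41.3 and 52.5 CPM (0.42, SE 0.23, adjusted p = 0.223). Snrpc, at 210.8, 457 and 155.6 CPM in morulae and 139.6, 141.5 and 134.6 CPM in blastocysts, missed the threshold (-0.99, SE 0.38, adjusted p = 0.0919; -0.36 without morula replicate 2).

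The number of calls depended on single morulae. Without morula replicate 3, the embryo that stood apart, 12 members were called (26.1%, where 24.8% of all genes were; Prpf18, Prpf31, Prpf40b, Snrpa and Snrpc in addition). The values of Lsm10, Lsm12 and Prpf40b were then 2.23, -1.44 and 5.28. Calls also depended on the other embryos: without morula replicate 2, the one with the highest values, 0 members were called, where 1.88% of all genes were. Sf3b1 was then at -0.37, Prpf38a at -0.40, Sf3b6 at -0.47 and Lsm12 at -0.77. Leaving out morula replicate 1 gave 2 (4.35%, all genes 4.69%), and blastocyst replicate 3 gave 2 (4.35%, all genes 6%). Leaving out blastocyst replicate 1 or 2 gave 0 (all genes 2.3% and 2.4%). Trophectoderm markers summed to 1310 to 2790 CPM in these morulae and 6030 to 9140 CPM in the blastocysts (4 of 14 called higher and 1 lower). Epiblast and pluripotency markers summed to 6940 to 7670 CPM and 5150 to 5800 CPM (5 of 14 called lower, median -0.43). The part of both lists in the differences was not tested.

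In the Gabpb1 cross no member was called between stages, nor was any of the 18410 genes (0%) by edgeR's quasi-likelihood test; 1 member had an unadjusted p under 0.05 (6.72% of all genes), and DESeq2 called 0 members and 51 genes (0.277%). The fitted values were small. Lsm6 was highest, at 90.1 and 68.6 CPM in morulae and 117.1, 135.6 and 124.2 CPM in blastocysts (log2 fold change 0.66, SE 0.24, adjusted p = 0.615). Lsm1 was at 49.5 and 30.3 CPM against 54.5, 45.8 and 56.3 CPM (0.39), and Lsm11 at 8.61 and 11.9 CPM against 12.5, 11.96 and 15.3 CPM (0.37). These 3 values turn negative with ERCC scaling, which moved the all-gene median to -0.86. At the low end, Sf3b1 was at 566.7 and 573.2 CPM against 472.4, 522 and 366.5 CPM (-0.33), and Prpf18, a factor of the second catalytic step, at 58.4 and 57.5 against 46.9, 41.4 and 63.3 CPM (-0.20). Of the 46 members, 34 were above 0 with a median of 0.12 beside 0.02 for all genes. The median was 0.038 without blastocyst replicate 2 and 0.064 without morula replicate 2, and with ERCC scaling the members' median was -0.75. Trophectoderm markers differed less between stages here, at 3830 to 5750 CPM in the morulae and 6160 to 7480 CPM in the blastocysts. The values of named genes rested on single embryos: Lsm1 ran from 0.077 to 0.79, Lsm11 from 0.15 to 0.62, Sf3b1 from -0.44 to -0.20 and Prpf18 from -0.39 to -0.077 when 1 embryo was left out, with Lsm1 and Lsm11 depending on the morulae and Sf3b1 and Prpf18 on blastocyst replicates 2 and 3.

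**Figure D5:**
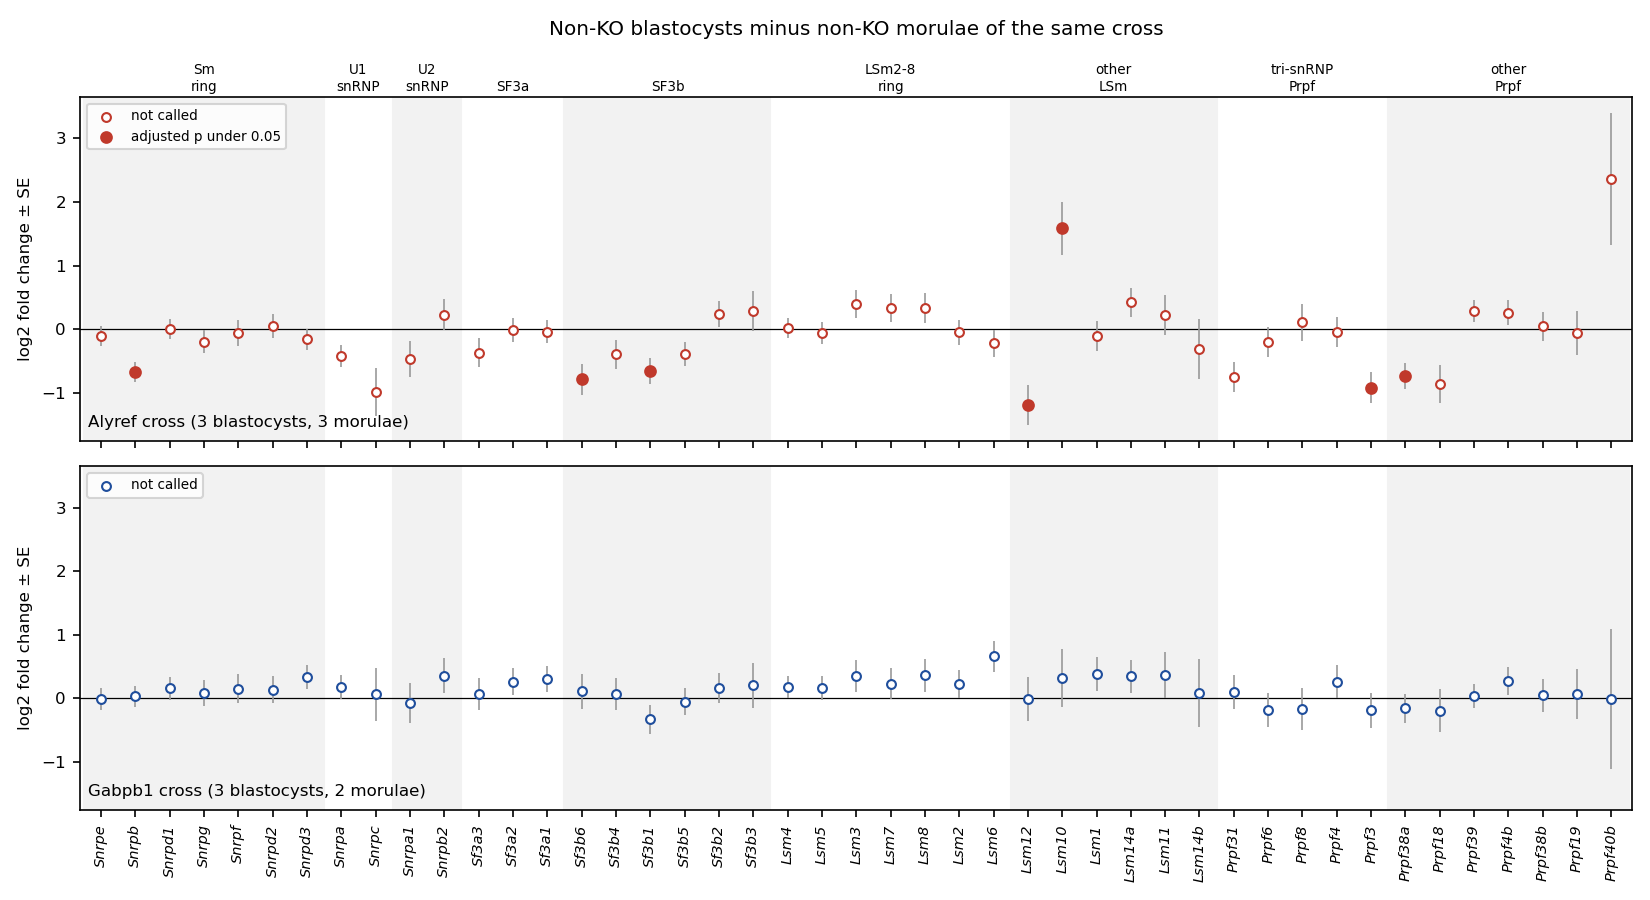
Log2 fold change and SE of the tested members reported here between non-KO blastocysts and non-KO morulae, Alyref cross above and Gabpb1 cross below. The 7 filled points, with an adjusted p under 0.05, are all in the Alyref cross; Prpf40b has the widest error bars in both.

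A test of the difference between the stage changes of the crosses called 0 members and 1 gene (0.00543%) by edgeR's quasi-likelihood test, so the stage change of these genes was not shown to differ between crosses. An unadjusted p under 0.05 was found for 6 members, of which Snrpb had the smallest (log2 difference 0.70, SE 0.23, adjusted p = 0.24), and DESeq2 called 0 members (1.86% of all genes). Prpf40b was called without Alyref-cross non-KO morula replicate 3, where 3.81% of all genes were.

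The non-KO morulae of the crosses differed from each other. Snrpb was lower in the Gabpb1 cross, at 566.4 and 551.6 CPM against 946.3, 1112 and 857.5 CPM (log2 fold change -0.80, SE 0.17, adjusted p = 0.0361), and was the single member called by edgeR, where 1.86% of all genes were (342 of 18410, 1.18% higher and 0.674% lower). DESeq2 called Snrpb alone among the members and 9.2% of all genes. A negative value was fitted for 39 of 46 members, with a median of -0.30 beside -0.03 for all genes, and the Gabpb1-cross morulae lay wholly below for 17 members and wholly above for 1, Lsm10, where 18.2% and 17.9% of all genes did. With ERCC scaling the members' median turned to 0.15 and that of all genes to 0.39, and Snrpb stayed at -0.30 without a call. Without Alyref-cross morula replicate 3, 7 members were called (15.2%, where 13.2% of all genes were), and the call of Snrpb was lost when any other embryo of the comparison was left out. With Alyref-cross morula replicate 1 or 2 left out, 0 of the 18410 genes were called. The Gabpb1-cross morulae also had the higher trophectoderm marker sums, 3830 and 5750 CPM against 1310 to 2790 CPM (12 of 14 above 0, 0 called), and epiblast and pluripotency sums of 4910 to 6530 CPM against 6940 to 7670 CPM (13 of 14 below 0, 1 called lower, median -0.97). The part of both lists in the difference was not tested. The non-KO morulae of each cross also served as controls for the KO and stage comparisons above, so those comparisons are not independent.

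Blastocysts of the heterozygous crosses were not distinguished from WT blastocysts. No member and no gene (0%) was called in either cross by edgeR's quasi-likelihood test, with 0 members (2.94% of all genes) at an unadjusted p under 0.05 in the Alyref cross and 1 (6.1%) in the Gabpb1 cross, Sf3b2 at -0.47. DESeq2 called 0 members in both, and 15 (0.0815%) and 39 (0.212%) genes. The fitted values of the members ran from -0.38 to 0.44 in the Alyref cross and from -0.71 to 0.28 in the Gabpb1 cross, and both comparisons share the 3 WT embryos.

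Other genes of the pathway were read from 4 lists: 49 further spliceosome genes, 17 genes for the assembly of Sm rings, 12 tested SR protein genes, which mark exons for splicing, and 7 tested decapping partners of the cytoplasmic LSm proteins. By edgeR's quasi-likelihood test none of them was called in either KO comparison. In Alyref KO morulae an unadjusted p under 0.05 was found for 8, 3, 4 and 2 genes of the lists in that order, beside 12.1% of all genes, and DESeq2 called 1, 2, 0 and 0, beside 2.66%. In labelled Gabpb1 KO morulae the unadjusted numbers were 6, 4, 0 and 1, beside 18.9% of all genes, and DESeq2 called 3, 2, 0 and 1, beside 6.87%.

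In the Alyref cross, 3 of 49 further spliceosome genes, 6 of 17 Sm assembly genes, 1 of 12 SR genes and 0 of 7 decapping genes were called between stages, all of them lower in blastocysts, beside 7.43% of all genes tested. The medians were -0.14, -0.51, -0.29 and 0.09. The strongest were Snu13, which opens the assembly of the U4 snRNP (log2 fold change -1.16, SE 0.22, adjusted p = 0.0078), Crnkl1, a scaffold of the catalytic spliceosome (-2.31, SE 0.48, adjusted p = 0.0112), and Slu7, a factor of the second step (-0.94, SE 0.21, adjusted p = 0.0134). Among the assembly genes, Gemin5 reads the snRNA and Ddx20 is a helicase of the SMN complex, while Prmt5 methylates Sm proteins. Their log2 fold changes were -1.27 (SE 0.34), -0.998 (SE 0.27) and -0.99 (SE 0.28), with adjusted p-values of 0.0265, 0.0286 and 0.0338. Without morula replicate 2 Crnkl1 was at -1.40, Gemin5 at -0.75 and Slu7 at -0.61. The count for assembly genes fell to 1 without morula replicate 1 and to 0 without morula replicate 2 or any 1 of the 3 blastocysts, and that for further spliceosome genes ranged from 1 to 8 over the fits without 1 embryo. Over the same fits, calls ranged from 1.88% to 24.8% of all genes. In the Gabpb1 cross 0 genes of the lists were called, with 3, 1, 0 and 0 at an unadjusted p under 0.05 (6.72% of all genes), and DESeq2 called 0.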

How the data were processed

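The authors deposited 1 table of whole-number counts per gene and embryo, although its name announces FPKM; per the submitters' processing notes reads were trimmed with Trimmomatic, Trim Galore and cutadapt, aligned with STAR to mm10 and counted with featureCounts, with versions and the strand setting not given in the sources used here. The limma test planned for FPKM was therefore replaced by edgeR 4.0.16 (R 4.3.3) on the counts. FPKM was computed from counts and deposited exon length, and the 92 ERCC rows were kept out of library sizes. A group-mean model with TMM scaling was fitted to all 19 embryos and 18410 genes, and 9 contrasts were tested by the quasi-likelihood F test with Benjamini-Hochberg adjustment over all genes; a gene was called at an adjusted p under 0.05. The SE is the size of the log2 fold change over the square root of F. The tests were also run on simulated counts, drawn with the same spread in every group. Such counts cannot check whether the groups of embryos share their spread.

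Depth was between 7486125 and 31536282 gene counts per embryo, with under 100 counts in some embryos for Prpf40b, Lsm14b, Lsm10, Lsm11, Prpf19 and Lsmem1. Alternatives were DESeq2 1.42.0, RLE and ERCC scaling, no filter, a filter at 10 embryos, fits on only the compared groups, a replicate block and leaving out each embryo. The members and all lists were chosen with earlier results of these data known. Genes named with full values were the members called and, in each KO and stage comparison, the 3 with the largest fitted rise and the 3 with the largest fall; from the lists, the 6 smallest p-values of a contrast among called genes. The values of 1 member are not reported here, though it is included in the counts and medians. Of the 47 identifiers, 44 occur in GENCODE M21 with the same start and end. Sequences are from RefSeq promoters of GRCm38.p6.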

Additional observations from a re-analysis of the deposited data

Results flagged for a closer look

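The difference between the KO effects of the crosses on Lsm7 met the threshold, at a log2 difference of 1.74 (SE 0.36, adjusted p = 0.0348 by edgeR's quasi-likelihood test with Benjamini-Hochberg adjustment). The pseudogenes with a stretch near-identical to Lsm7 moved in the same order. Gm13182 was at 7.52 to 11.5 CPM in Alyref KO morulae and 14.1 to 19.1 CPM in the non-KO morulae of the Alyref cross. In the Gabpb1 cross it was at 26.2 to 35.8 CPM in the morulae labelled KO and 17.3 to 18.4 CPM in the others. Over the fits that left out 1 embryo the difference in Lsm7 ran from 1.39 to 2.21, and 5 of the 10 fits lost the call.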

How the results depend on the processing

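The number of members called depended on the fit. DESeq2 called 2 in the Alyref KO comparison, 6 in the Gabpb1 KO comparison and 5 in the difference between KO effects. These were 4.35%, 13% and 10.9% of the members, beside 2.66%, 6.87% and 4.86% of all genes. With ERCC scaling, or with only the compared groups in the fit, 0 members were called in the Gabpb1 KO comparison, the difference between KO effects, the Alyref-cross stage comparison and the comparison of non-KO morulae. Of all genes, ERCC scaling called 0.141%, 0.0543%, 1.91% and 0.0109% in that order. The fit on only the compared groups called 0%, 0%, 0.13% and 0%. Without a filter the count was 2 for the Alyref-cross stage comparison (4.26%, all genes 5.07%). It was 0 for both the difference between KO effects and the non-KO morulae (all genes 0.306% and 1.02%). With the stricter filter it was 2 for the difference between KO effects (4.55%, all genes 1.46%). Leaving out 1 embryo at a time gave 0 to 2 in the Gabpb1 KO comparison, 0 to 5 in the difference between KO effects, 0 to 12 in the Alyref-cross stage comparison, 0 to 1 in the difference between stage changes and 0 to 7 between non-KO morulae. The highest counts were 4.35%, 10.9%, 26.1%, 2.17% and 15.2% of the members. In the same fits 5.25%, 3.84%, 24.8%, 3.81% and 13.2% of all genes were called. ERCC scaling reversed Lsm1 (-0.50), Lsm11 (-0.54) and Lsm6 (-0.24) in the Gabpb1-cross stage comparison and Lsm6 (-0.085) in the Gabpb1 KO comparison. It shifted genes in general: 7.9% of all genes were above 0 in that stage comparison, against 51.6% with TMM scaling. In the Gabpb1 KO comparison these shares were 27.5% and 52.9%. Snrpc in the Alyref KO comparison ran from -0.064 without KO replicate 1 to 1.056 without non-KO morula replicate 2. The other values of single genes kept their direction in all alternatives run. The cause was not tested. With the replicate block, counts were 1 in the Gabpb1 KO comparison, 1 in the difference between KO effects (Sf3b1 in place of Lsm7), 7 in the Alyref-cross stage comparison and 1 between non-KO morulae. These were 2.17%, 2.17%, 15.2% and 2.17% of the members, beside 1.44%, 0.636%, 10.9% and 1.78% of all genes. Deviations of same-numbered embryos from their group means correlated at r from -0.156 to 0.168 (17 pairs, 4 of them over 0.1). In groups of 2 or 3 such deviations are tied to each other, so these values cannot decide whether the numbers pair the embryos. Groups of 2 or 3 embryos limit every comparison, and Prpf40b, at 0 to 211 counts, cannot be read in single embryos.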
